A study of Drosophila melanogaster with 48 samples.

Results

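The cytochrome P450 genes of *Drosophila melanogaster* were examined in the heads of adult males with and without menadione sodium bisulfite (MSB), a compound that generates superoxide inside cells and is used to impose oxidative stress. The genes were chosen by name, as every gene of the count table whose symbol consists of Cyp, a number, 1 or more lower-case letters and a further number. The rule found 83 of the 13957 genes in the table, and 77 of the 83 had exactly 1 letter between the numbers. The rule itself used no measured value, but it was chosen with earlier results of these data known. By clan, the highest level of the P450 nomenclature used here, 4 genes belonged to CYP2, 38 to CYP3, 32 to CYP4 and 9 to the mitochondrial clan. The largest families were Cyp6 with 23 genes, Cyp4 with 22, Cyp12 with 7, and Cyp9 and Cyp313 with 6 each.

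P450 enzymes hold a heme group and insert 1 atom of molecular oxygen into their substrate, with electrons passed on by a reductase. Those of the CYP2, CYP3 and CYP4 clans sit in the endoplasmic reticulum and receive electrons from cytochrome P450 reductase, while those of the mitochondrial clan receive them from a ferredoxin. The CYP3 clan is best known in insects for breaking down insecticides and plant toxins, the CYP4 clan for acting on fatty acids, hydrocarbons and pheromones, and the CYP2 and mitochondrial clans hold enzymes that make or inactivate the molting hormone ecdysone. Many P450 genes of the fly are induced by foreign compounds, and several lie side by side in the genome as copies of each other.

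The study compared 12 lines. M12D3, M9D3, C2D3 and KL01 carry a deletion in the 3′ UTR of the metallothionein gene *MtnA*, and M12N3, M9N1, C2N1, KL02, ZI197, ZI254, ZI273 and ZI418 do not. The M12 and M9 pairs came from Munich in Germany and the C2 pair from Nicosia in Cyprus, and each of these pairs is nearly isogenic and traces back to 1 isofemale line, although the M9 pair kept more genetic differences across the genome than the M12 and C2 pairs did. The KL lines are independent isofemale lines from Malaysia, so that the 2 KL lines differ in more than *MtnA*, and the ZI lines are isofemale lines from Zambia. Stressed males fed on food with 75 mM MSB, for 24 h in the lines from Germany, Cyprus and Malaysia and for 18 to 20 h in the Zambian lines, and controls fed on the same food without MSB. Each library was made from the heads of 60 living males aged 5 to 7 days, with poly-A RNA. The exposure time and the Zambian origin cannot be told apart. There were 2 control libraries in each line, and 1 stress library in ZI197 and ZI418, 3 in ZI254 and ZI273, and 2 in each of the other lines. Replicate 1 of the M9N1 stress libraries stood apart from all others and was left out, which leaves 24 control and 23 stress libraries. All 24 stress libraries correlated best with the controls of their own line.

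The libraries held between 27223075 and 63358011 counts in controls (median 40920022.5) and between 29414147 and 53939743 under stress (median 40361280). P450 genes took 0.362 to 1.20% of the counts in controls and 0.579 to 1.97% under stress. Levels are given as CPM, counts scaled to the normalized size of each library, and CPM divided by the gene length in kilobases is used where genes are compared with each other. In bulk RNA from whole heads, fewer cells of a type and less RNA per cell cannot be told apart. Of the marker genes of other cell types, all 4 head fat body markers were lower under MSB (summed level 4132 to 18677 CPM in controls and 1097 to 6237 CPM under MSB), as were all 4 hemocyte markers (143 to 428 CPM and 98.3 to 247 CPM), 3 of 4 glial markers and all 3 flight muscle markers tested. None of the 4 neuronal markers was called (2712 to 3970 CPM in controls and 2403 to 3690 CPM under MSB), and 2 of the 4 photoreceptor markers were higher (25735 to 52677 CPM and 23210 to 60785 CPM). Of the midgut markers, *Amy-p* and *Amy-d* were higher and *Mal-A1* was not called, with a summed level of 12.7 to 493 CPM in controls and 69.7 to 835 CPM under MSB. Of the oenocyte markers, *FASN2* (log2 fold change 0.67) and *CG18609* (3.26) were higher and *FarO* was not called, with a summed level of 5.15 to 51.6 CPM in controls and 5.94 to 44.0 CPM under MSB. Of the 3 Malpighian tubule markers tested, *Best2* was lower (-0.54). The part of these shifts in the P450 results was not tested.

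The first comparison asks how the P450 genes responded to MSB over all 12 lines. The P450 genes as a whole took up more of the transcriptome in every line. Their summed level under MSB was above both controls in every stress library of all 12 lines, and the ratio of the line means ran from 1.25 in M12N3 to 2.25 in ZI418, with a median of 1.65. The summed levels of the clans did not move alike. The summed level of the mitochondrial clan was above the controls in all 12 lines (ratio 1.85 to 6.35), that of the CYP3 clan in all 12 (1.24 to 3.15) and that of the CYP4 clan in 8 (1.00 to 1.95), while that of the CYP2 clan was below the controls in all 12 (0.310 to 0.664). Within the CYP4 clan, the Cyp4 family was above the controls in all 12 lines (1.34 to 2.44) and the Cyp313 family below them in all 12 (0.0902 to 0.316). The sum of the Cyp313 family was mostly *Cyp313a1*, at a mean of 525 CPM in controls, against 2.03 CPM for *Cyp313b1*, the next highest member. The rise of the mitochondrial clan was mostly that of *Cyp12d1-d* (449 CPM in the mean) and *Cyp12d1-p* (380 CPM), while 3 of its 9 genes were called lower. The fall of the CYP2 clan was mostly that of *Cyp305a1* (-39.3 CPM), and its 3 other genes were not called.

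**Figure D1:**
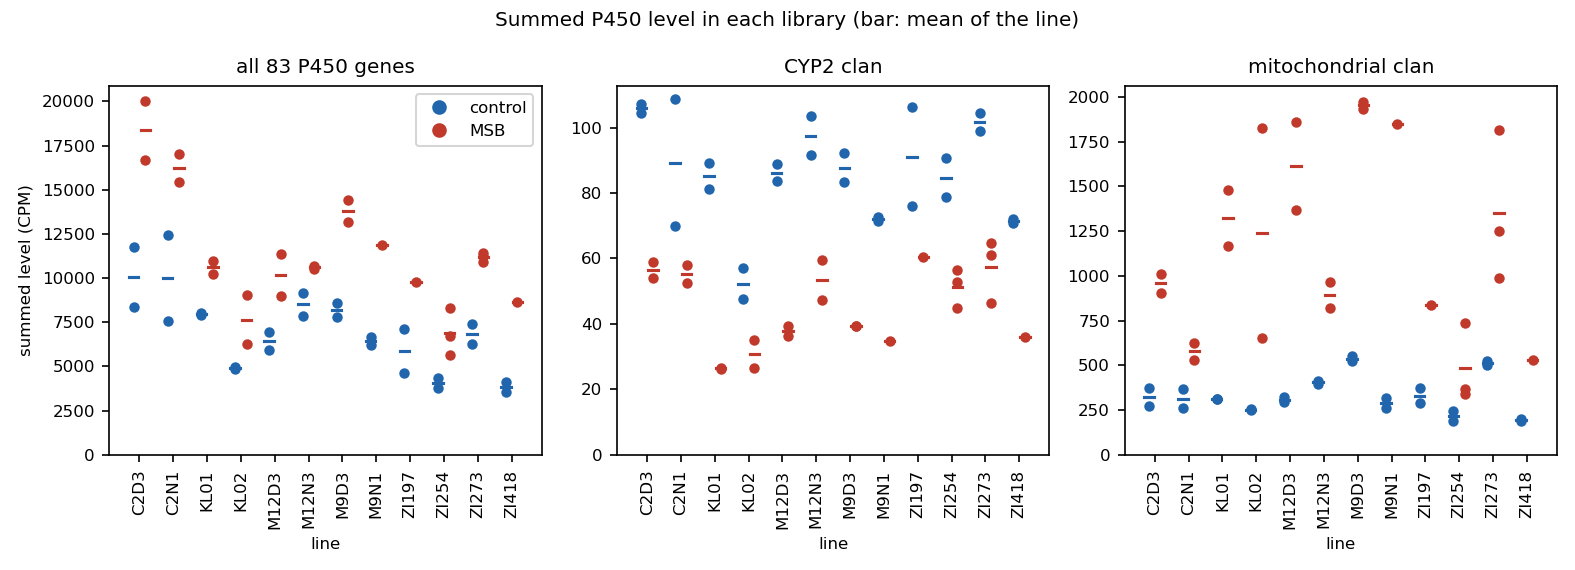
Summed level in CPM (y axis, linear from 0) of all 83 P450 genes, of the 4 genes of the CYP2 clan and of the 9 genes of the mitochondrial clan, in each control (blue) and MSB (red) library of the 12 lines (x axis), with a bar at the mean of each line and treatment. In every line the red points lie above the blue ones for all P450 genes and for the mitochondrial clan, and below them for the CYP2 clan.

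Of the 83 P450 genes, 78 passed the filter for genes with low counts and entered edgeR's quasi-likelihood test over all lines, with Benjamini-Hochberg adjustment over all 10514 genes tested. Of these, 27 (34.6%) were higher under MSB, where 27.3% of all tested genes were higher, and 16 (20.5%) were lower, where 26.2% of all tested genes were lower. The remaining 35 were not called. The median log2 fold change was 0.15 for the P450 genes and 0.01 for all tested genes. By clan, 1 of 4 CYP2 genes tested was lower, 11 of 35 CYP3 genes higher and 5 lower, 14 of 30 CYP4 genes higher and 7 lower, and 2 of 9 mitochondrial genes higher and 3 lower. By family, 9 of 21 Cyp6 genes and 10 of 22 Cyp4 genes were higher, against 2 and 5 lower, and 2 of 6 Cyp9 genes were lower. Of 4 Cyp313 genes tested, *Cyp313a3*, *Cyp313a4* and *Cyp313b1* were higher and *Cyp313a1* was lower. This test fitted treatment alone, so that differences between lines counted as spread. Only in this fit was the share of calls in either direction near that of all genes. In the tests within single lines, given below, the share called higher was above that of all genes in every line. It was 27.5% against 8.77% in C2D3 and 16.2% against 2.53% in KL02. The rise of the summed level came mostly from few genes with large changes. *Cyp310a1*, *Cyp6a16*, *Cyp6a18*, *Cyp313a2* and *Cyp313a5* were too low to be tested. *Cyp310a1* had at most 0.179 CPM in a control library and 0.958 CPM in a stress library.

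**Figure D2:**
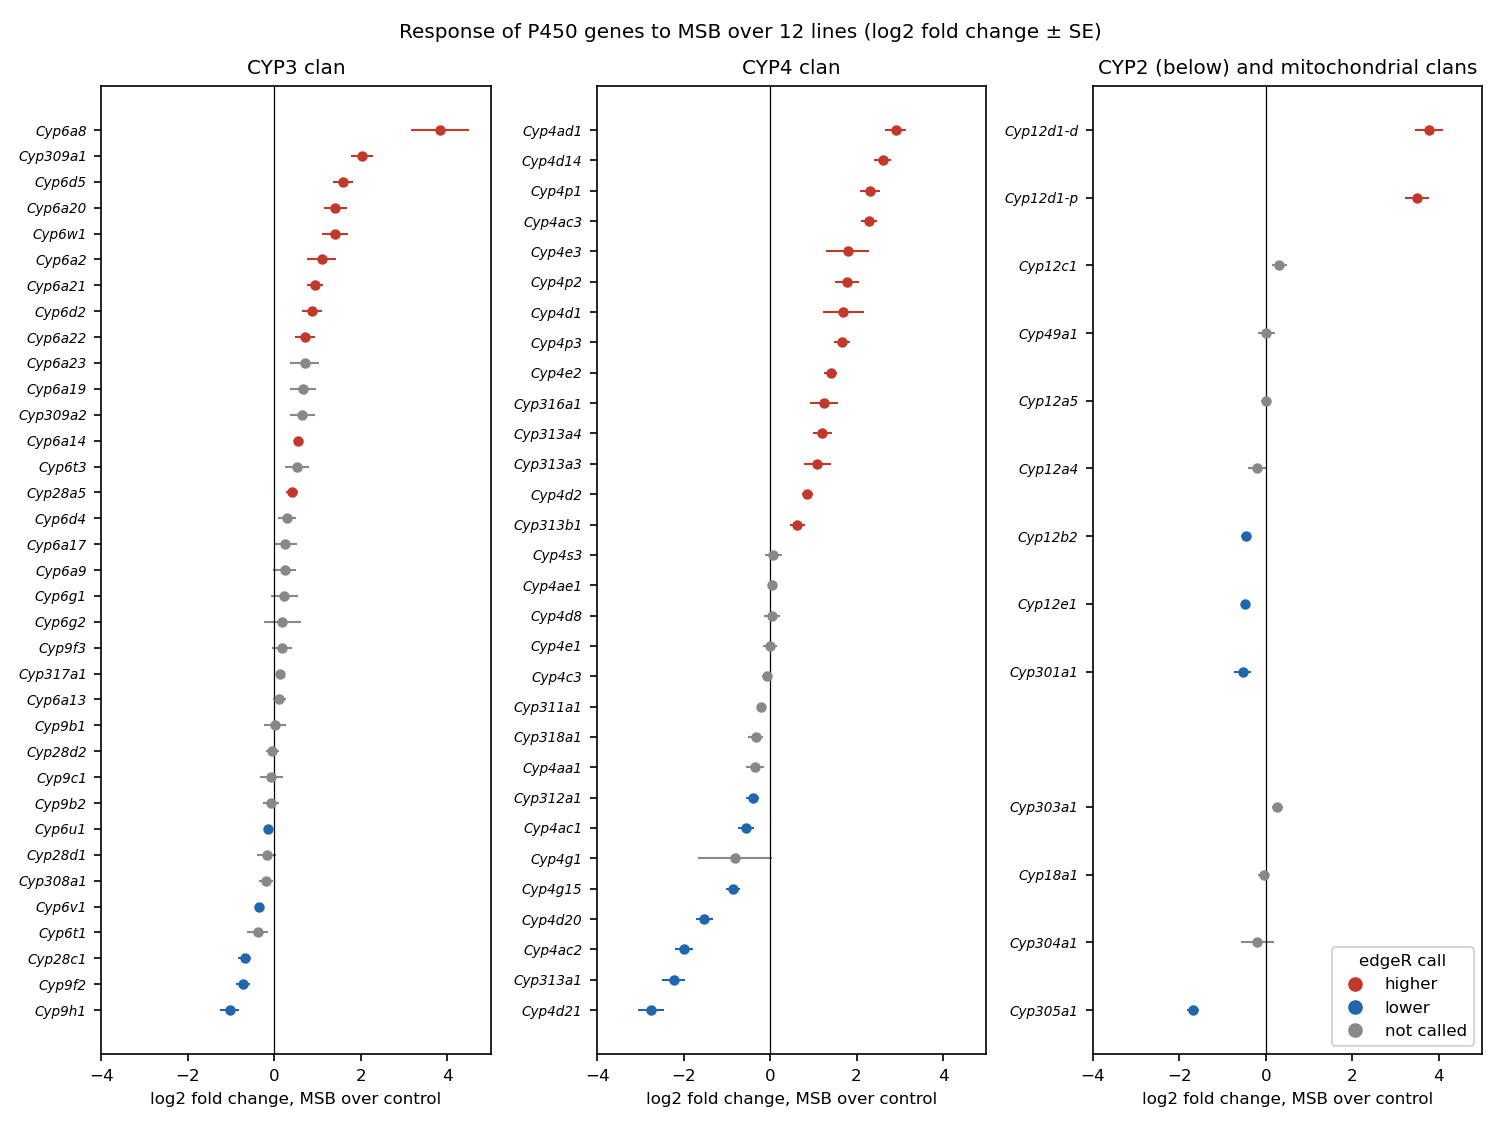
Log2 fold change of MSB over control (x axis) with its SE (bars) for the 78 P450 genes tested over all lines, by clan and in the order of the fold change, coloured by the edgeR call. The CYP4 clan holds both large increases and large decreases, and values run from 3.83 for *Cyp6a8* to -2.75 for *Cyp4d21*.

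The mitochondrial clan held a pair of the largest increases. *Cyp12d1-d* and *Cyp12d1-p* are near-identical copies on 2R (11117225 to 11125647) that are known to be induced by caffeine, phenobarbital and other foreign compounds, and the split of reads between them is uncertain. *Cyp12d1-d* ranged from 5.97 to 73.0 CPM in controls (median 39.2) and from 64.0 to 1003 CPM under MSB (median 353). The log2 fold change was 3.78 (SE 0.32, edgeR adjusted p = 3.89e-14). *Cyp12d1-p* ranged from 12.7 to 159 CPM in controls (median 28.7) and from 128 to 759 CPM under MSB (median 426), a shift of 3.49 ± 0.28 (SE) on the log2 scale (edgeR adjusted p = 1.11e-14). The groups of both copies overlapped by few libraries, with the lowest stress libraries in ZI254. Each copy was called higher in 11 of the 12 lines. In ZI197, which had 1 stress library, neither copy was called. The difference of mean log2 CPM there was 2.11 for *Cyp12d1-d* and 1.61 for *Cyp12d1-p*, the lowest of the lines. The ZI197 controls of *Cyp12d1-p* were at 124 and 159 CPM. The other mitochondrial genes moved little. *Cyp12b2* (-0.46), *Cyp12e1* (-0.49) and *Cyp301a1* (-0.53, edgeR adjusted p = 0.0195), which is needed for the formation of the cuticle, were lower on the log2 scale. The call of *Cyp301a1* was lost without the Zambian lines (-0.46, adjusted p = 0.145) and without ZI273 alone (-0.46, adjusted p = 0.0705). *Cyp12a4*, which confers lufenuron resistance when overexpressed, was not called (log2 fold change -0.21, adjusted p = 0.417), and nor were *Cyp12a5*, *Cyp12c1* and *Cyp49a1*.

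In the CYP3 clan the largest increase was that of *Cyp6a8*, a gene inducible by phenobarbital and caffeine. It ranged from 0.126 to 446 CPM in controls (median 13.1) and from 9.74 to 1599 CPM under MSB (median 617). The ranges overlapped because the lines differed, while every stress library was above both controls of its own line. The log2 fold change was 3.83 (SE 0.67, edgeR adjusted p = 3.34e-06), and 5.28 with line as a block. *Cyp6d5* ranged from 77.7 to 770.4 CPM in controls (median 304) and from 272 to 2116 CPM under MSB (median 806), a shift of 1.59 ± 0.23 (SE) on the log2 scale (adjusted p = 1.06e-07), and was called higher in all 12 lines. *Cyp6w1*, which has been linked to DDT resistance, went from a median of 483 CPM (42.6 to 1888) to 1531 CPM (623 to 3342), a shift of 1.41 ± 0.31 (SE) on the log2 scale (adjusted p = 0.000119). *Cyp309a1* went from a median of 22.9 CPM (11.5 to 98.5) to 138 CPM (15.7 to 231), a shift of 2.03 ± 0.25 (SE) on the log2 scale (adjusted p = 1.23e-09). These genes are thus among the abundant P450 genes of the stressed head. *Cyp6a20*, whose product affects male aggression, was higher by 1.41 on the log2 scale (SE 0.27, adjusted p = 1.45e-05), and *Cyp6a2*, an insecticide-metabolizing enzyme, by 1.09 (SE 0.33, adjusted p = 0.0047).

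Other CYP3 genes that are known from insecticide resistance or physiology were not called over all lines. *Cyp6g1*, whose overexpression confers resistance to DDT and neonicotinoids, ranged from 199.7 to 4536 CPM in controls (median 2392) and from 361 to 5307 CPM under MSB (median 2351). Its shift was 0.23 ± 0.31 (SE) on the log2 scale (edgeR adjusted p = 0.553), and 0.26 (adjusted p = 0.00623) when line was fitted as a block. *Cyp6g2* had 0.19 (adjusted p = 0.738), *Cyp6a17*, which sets temperature preference, 0.25 (adjusted p = 0.438), its close paralog *Cyp6a23* 0.70 (adjusted p = 0.0767), *Cyp6t3*, which takes part in ecdysone synthesis, 0.53 (adjusted p = 0.104), and *Cyp28d1*, which is linked to nicotine resistance, -0.18 (adjusted p = 0.519). Reads of close paralogs such as *Cyp6a17* and *Cyp6a23* may have been shared between them. With line as a block, *Cyp6g2* (0.34, adjusted p = 0.00543), *Cyp6a23* (0.59, adjusted p = 1.67e-11) and *Cyp6t3* (0.75, adjusted p = 0.000309) also passed the threshold. The CYP3 genes that fell were few and moderate. *Cyp9h1* ranged from 2.19 to 34.6 CPM in controls (median 23.3) and from 1.64 to 25.5 CPM under MSB (median 9.36), a shift of -1.03 ± 0.22 (SE) on the log2 scale (adjusted p = 6.6e-05). *Cyp9f2* had a median of 252 CPM in controls (69.8 to 377) and 156 CPM under MSB (41.4 to 219), a shift of -0.71 ± 0.16 (SE) on the log2 scale (adjusted p = 0.000216). Both had a lower mean under MSB in all 12 lines.

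The CYP4 clan held the genes with the most uniform increases. Overlap of the groups was checked for the P450 genes and not for all genes, and *Cyp4d14* alone had none. It ranged from 2.32 to 14.9 CPM in controls (median 6.99) and from 15.8 to 108 CPM under MSB (median 45.3). Its shift was 2.60 ± 0.20 (SE) on the log2 scale (edgeR adjusted p = 4.16e-15). *Cyp4p1* ranged from 34.1 to 225 CPM in controls (median 128) and from 152 to 1169.9 CPM under MSB (median 599.8), a shift of 2.30 ± 0.23 (SE) on the log2 scale (adjusted p = 7.79e-12). Its neighbour *Cyp4p2* went from a median of 5.18 CPM (1.10 to 16.2) to 15.7 CPM (3.36 to 40.9), a shift of 1.77 ± 0.28 (SE) on the log2 scale (adjusted p = 4.82e-07). *Cyp4d14*, *Cyp4p1* and *Cyp4p2* were, with *Cyp4d2* and *Cyp6d5*, the 5 genes called higher in each of the 12 lines. *Cyp4ac3* had a median of 7.24 CPM in controls (4.17 to 14.4) and 33.9 CPM under MSB (8.79 to 74.6), a shift of 2.29 ± 0.18 (SE) on the log2 scale (adjusted p = 9.8e-15). *Cyp4ad1* remained a low gene, with a median of 0.299 CPM in controls (0.0741 to 0.941) and 2.23 CPM under MSB (0.529 to 4.35), a shift of 2.91 ± 0.24 (SE) on the log2 scale (adjusted p = 3.76e-14). *Cyp4e3*, which has been tied to permethrin tolerance, went from a median of 37.7 CPM (12.8 to 521) to 146 CPM (58.2 to 1577). Its shift was 1.80 ± 0.50 (SE) on the log2 scale (adjusted p = 0.0022), with wide overlap of the groups. *Cyp4e2* was higher by 1.40 on the log2 scale (SE 0.14, adjusted p = 1.48e-11).

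The CYP4 clan also held the largest decreases. *Cyp4d21*, also called sex-specific enzyme 1, is expressed in the heads of males and affects courtship and mating success. It ranged from 50.8 to 346 CPM in controls (median 144) and from 1.40 to 79.7 CPM under MSB (median 18.4), a shift of -2.75 ± 0.30 (SE) on the log2 scale (edgeR adjusted p = 5.62e-11). The groups overlapped through 1 control library, in ZI197 (50.8 CPM). All other controls were above every stress library. *Cyp313a1* ranged from 132 to 913 CPM in controls (median 519) and from 11.6 to 259.5 CPM under MSB (median 101), a shift of -2.23 ± 0.27 (SE) on the log2 scale (adjusted p = 8.51e-10). *Cyp4ac2* had a median of 36.5 CPM in controls (12.3 to 87.7) and 7.98 CPM under MSB (5.09 to 24.9), a shift of -1.99 ± 0.20 (SE) on the log2 scale (adjusted p = 9.5e-12). *Cyp4d20* had a median of 60.2 CPM in controls (27.2 to 134) and 19.3 CPM under MSB (8.20 to 57.9), a shift of -1.52 ± 0.19 (SE) on the log2 scale (adjusted p = 2.24e-09). The means of all 4 genes were lower under MSB in all 12 lines. *Cyp4g15*, a gene of the brain and the close relative of *Cyp4g1*, was lower under MSB, with a shift of -0.85 ± 0.16 (SE) on the log2 scale (adjusted p = 2.1e-05), with a lower mean in 11 of the 12 lines. *Cyp4g1* itself, the oenocyte enzyme that makes the hydrocarbons of the cuticle, was at 0 to 114.8 CPM in controls (median 1.5) and 0 to 84.1 CPM under MSB (median 0.300). It was not called (log2 fold change -0.81, SE 0.85, adjusted p = 0.436), and its value had the other sign with the library that was left out (5.45, adjusted p = 0.000852, with all 48 libraries).

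In the CYP2 clan, *Cyp305a1* was the gene that fell. It ranged from 28.3 to 77.9 CPM in controls (median 56.4) and from 8.68 to 29.2 CPM under MSB (median 15.3), a shift of -1.69 ± 0.14 (SE) on the log2 scale (edgeR adjusted p = 1.76e-14), and was called lower in 11 of the 12 lines. The 3 other genes were not called over all lines. *Cyp18a1*, which inactivates the molting hormone, had a median of 22.3 CPM in controls and 19.4 CPM under MSB (log2 fold change -0.05, adjusted p = 0.758). It was called lower in 2 of the 12 lines. Its line mean went from 22.0 to 9.88 CPM in KL01, but from 18.6 to 28.2 CPM in ZI273. *Cyp303a1*, which is needed for sensory bristles, had a log2 fold change of 0.26 (adjusted p = 0.0741, and 0.00106 with line as a block), and *Cyp304a1* one of -0.19 (adjusted p = 0.694).

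The make-up of the P450 transcripts shifted with these changes. Per kilobase, the most abundant genes in controls were *Cyp6g1* (956 CPM per kb), *Cyp313a1* (323), *Cyp6w1* (276), *Cyp28d1* (236) and *Cyp6d5* (188), each as the mean level over the 24 control libraries. The corresponding mean levels under MSB were 1101 CPM per kb for *Cyp6g1*, 67.8 for *Cyp313a1*, 718 for *Cyp6w1*, 205 for *Cyp28d1* and 557 for *Cyp6d5*. As a share of the summed P450 CPM, *Cyp6g1* made up 28.6% in controls and 20.3% under MSB and ranked first in both. *Cyp6a8* moved from rank 23 with 0.751% to rank 4 with 6.44%, and *Cyp12d1-d* from rank 30 with 0.521% to rank 6 with 4.30%. *Cyp313a1* moved from rank 3 with 7.57% to rank 18 with 0.977%.

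The P450 genes of ecdysone synthesis that are known by the names of their mutants, and so lie outside the naming rule, were low in these heads, with a sum of 2.99 to 7.00 CPM in controls and 5.30 to 15.3 CPM under MSB. Of 4 tested, *shd*, which converts ecdysone into its active form, was higher (median 2.00 CPM in controls and 5.63 CPM under MSB, log2 fold change 1.70, SE 0.20, edgeR adjusted p = 6.17e-10), and *dib*, *sad* and *spo* were not called. Of the 6 electron transfer partners, 2 were higher and 3 lower. Cytochrome b5 (*Cyt-b5*) was higher by a log2 fold change of 1.22 (adjusted p = 4.92e-13) and the ferredoxin *Fdx1* by 0.28, while *Cyt-b5-r* (-0.62), the ferredoxin reductase *dare* (-0.16) and *Fdx2* (-0.30) were lower. *Cpr*, the reductase that serves the enzymes of the endoplasmic reticulum, was not called (0.24, adjusted p = 0.192). Genes of heme synthesis also moved in both directions. *Alas*, the first and rate-limiting enzyme of heme synthesis, was higher by a log2 fold change of 1.03 (adjusted p = 2.21e-14), followed by *Urod* (0.36), *Coprox* (0.32) and *FeCH* (0.28), while *Pbgs* (-0.17) and *Ppox* (-0.25) were lower and the heme oxygenase *Ho* was not called. Of 10 regulators of detoxification genes, 6 were higher, and *ss*, *tgo*, *gce* and *Clk* were not called. Of the former, *Keap1*, the inhibitor of the oxidative stress regulator *cnc*, had the largest log2 fold change (1.68, adjusted p = 1.32e-16), before *cnc* (0.39), *ERR* (0.21), *maf-S* (0.19), *Hr96* (0.12) and *Met* (0.10).

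The next comparison asks whether neighbours responded alike. On the Ensembl annotation of BDGP6, 48 of the 83 genes lay in 17 groups of 2 or more P450 genes with gaps of at most 20000 bases. In 2 groups every member was higher under MSB, namely *Cyp4p2*, *Cyp4p1* and *Cyp4p3* on 2R (9237512 to 9244410) and both *Cyp12d1* copies. In 6 groups no member was called. A single group held calls in both directions. On 2L (5264001 to 5270329), *Cyp4ac1* (log2 fold change -0.55, edgeR adjusted p = 0.0134) and *Cyp4ac2* (-1.99) were lower, and *Cyp4ac3* (2.29), which lies next to *Cyp4ac2*, was higher. The group of 9 on 2R (14871366 to 14903095) held 4 genes that were higher, *Cyp6a8*, *Cyp6a20*, *Cyp6a21* (0.95) and *Cyp6a22* (0.71), and 5 that were not called. In the group of 4 on X (2159145 to 2180998), *Cyp4d1* (1.69), *Cyp4d14* and *Cyp4d2* (0.86) were higher and *Cyp4ae1* was not called (0.05). The *Cyp6g1*, *Cyp6g2* and *Cyp6t3* group on 2R (12185667 to 12192436) had no call. Exons of 17 P450 genes overlap another counted gene, among them *Cyp6a9* with *Cyp6a19* and *Cyp6g1* with *Cyp6g2*, and reads of such pairs cannot be told apart where the counting did not use strand.

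**Figure D3:**
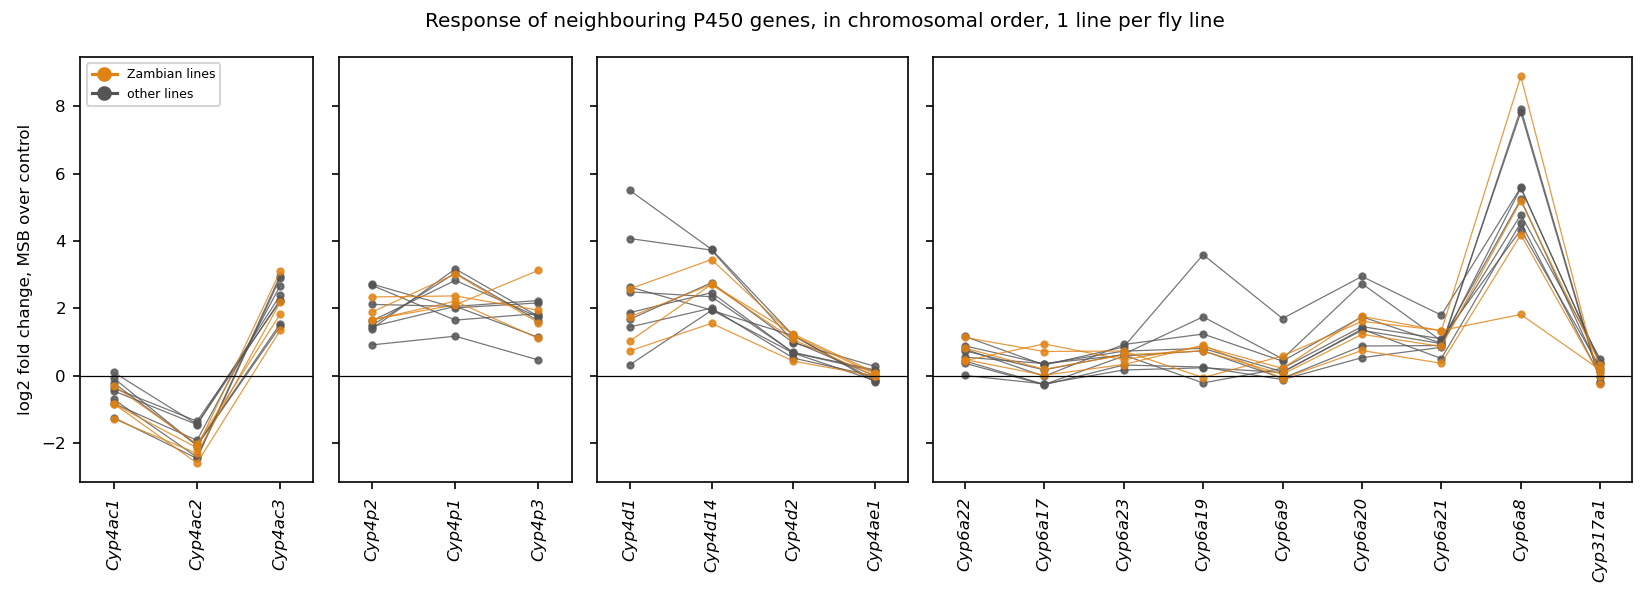
Log2 fold change of MSB over control (y axis) of neighbouring P450 genes in chromosomal order (x axis) for 4 groups of neighbours, with 1 connected series of points per fly line, Zambian lines in orange and other lines in grey. In the first panel *Cyp4ac2* lies below 0 and *Cyp4ac3* above 0 in every line, and in the last panel *Cyp6a8* stands above its neighbours in all 12 lines, with the smallest value in ZI197 (1.82).

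The response was then tested in each line, in a fit of its own background. Of the P450 genes tested, those called higher and lower numbered 22 and 8 of 80 in C2D3 (8.77 and 5.87% of all genes), 19 and 7 of 80 in C2N1 (5.27 and 3.84%), 27 and 12 of 80 in KL01 (13.7 and 11.4%) and 13 and 12 of 80 in KL02 (2.53 and 5.62%). They numbered 30 and 19 of 78 in M12D3 (16.4 and 18.3%), 14 and 15 of 78 in M12N3 (3.74 and 8.53%), 37 and 16 of 81 in M9D3 (16.7 and 16.7%) and 37 and 10 of 81 in M9N1 (15.9 and 12.1%). In the Zambian lines they numbered 20 and 0 of 81 in ZI197 (8.62 and 5.01%), 22 and 8 of 81 in ZI254 (8.39 and 8.06%), 20 and 11 of 81 in ZI273 (12.6 and 12.8%) and 21 and 3 of 81 in ZI418 (9.85 and 5.53%). The share of P450 genes called higher was above that of all genes in each of the 12 lines, while the share called lower was below that of all genes in ZI197 and ZI418. Lines differed in the number of stress libraries, and ZI197, ZI418 and M9N1 had 1 each, whose spread was taken from the other groups of the fit. In ZI197, 6 genes were lower in edgeR before adjustment (p under 0.05) and 5 in DESeq2 after it. In ZI418, the count of 3 lower was 7 in DESeq2 and in 1 fit over all lines, and 1 with no filter or with the replicate number as a block.

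Summed over the lines, 282 of 962 tests were higher and 121 lower. The shares of all genes are those given above for each line, and they were not summed. The number of lines in which a gene was called was counted for the P450 genes and not for all genes. No P450 gene was called lower in all 12 lines with edgeR, against 3 at an unadjusted p under 0.05, and against 3 with DESeq2 after adjustment. *Cyp305a1*, *Cyp9h1* and *Cyp4ac2* were called lower in 11 lines each, *Cyp4d21*, *Cyp4d20* and *Cyp12b2* in 8, and *Cyp313a1* and *Cyp9f2* in 7. For 14 genes no line was called. *Cyp309a2*, *Cyp6d2*, *Cyp6d4*, *Cyp6t1*, *Cyp6t3* and *Cyp9b2* were called higher in some lines and lower in others.

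**Figure D4:**
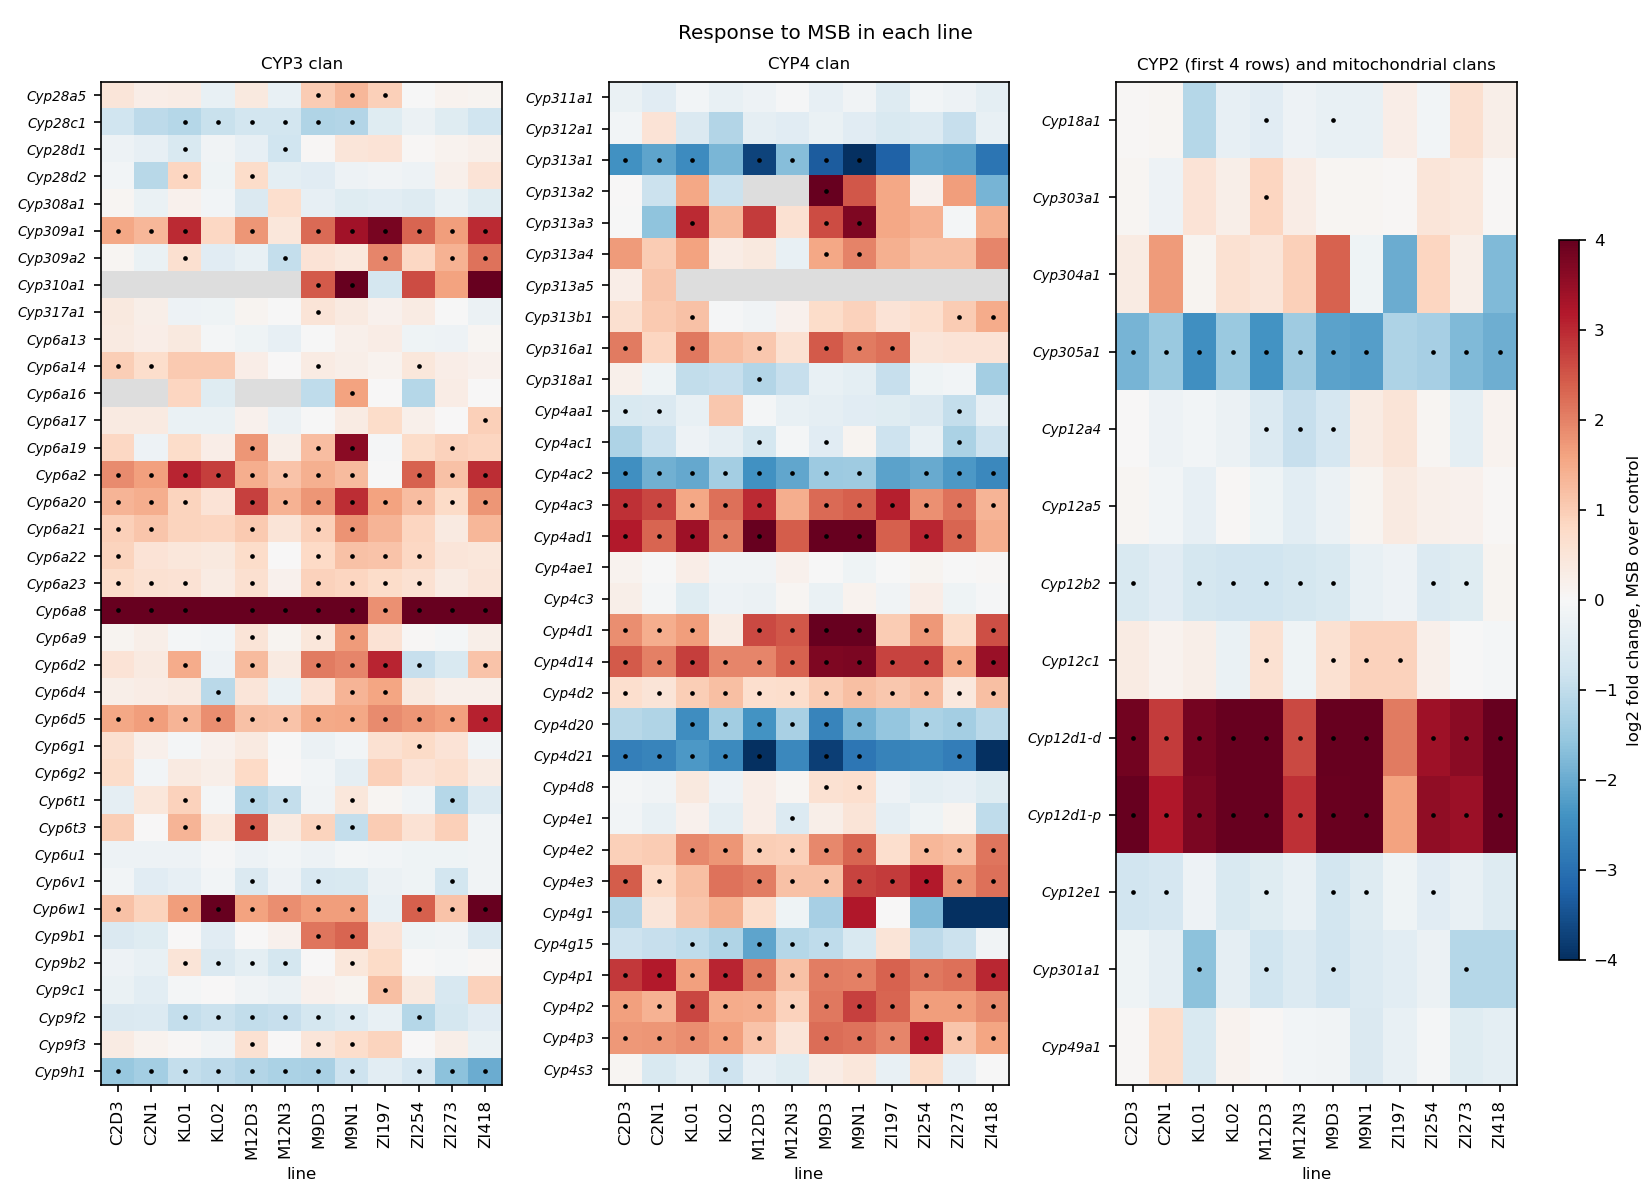
Log2 fold change of MSB over control (colour, red higher and blue lower, limited to 4 in either direction) of the P450 genes tested in at least 1 line (rows, by clan) in each of the 12 lines (columns), with a dot where edgeR called the gene and grey where it was not tested. Rows such as *Cyp4p1* and *Cyp6d5* carry a dot in all 12 lines, while *Cyp9b1* carries one in M9D3 and M9N1 alone.

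Whether the response differed among lines was tested as a line by treatment term over all 12 lines. With edgeR, 25 of 82 P450 genes (30.5%) were called, where 9.41% of all tested genes were called. All of them belonged to the CYP3 clan (15 genes) or the CYP4 clan (10 genes). The largest response of the called genes lay in M9N1 for 11 of the 25, in ZI197 for 5 and in ZI418 for 3. Each of these lines had 1 stress library. The smallest lay in M12N3 for 7, in ZI197 and ZI273 for 5 each, in KL02 for 3 and in ZI418 for 2.

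*Cyp6w1* had the smallest adjusted p of this term among the P450 genes (edgeR adjusted p = 1.35e-05). In KL02 it was at 47.4 and 42.6 CPM in controls and 836 and 623 CPM under MSB, and in ZI418 at 62.7 and 71.1 CPM in controls and 1225 CPM under MSB. In ZI197 it was at 976 and 1675 CPM in controls and 1068 CPM under MSB. KL02 and ZI418, the lines with the lowest control levels, thus lay closer to the other lines under MSB, and ZI197 stayed within the range of its controls. The log2 fold change was 4.0 (SE 0.19) in KL02, 4.22 (SE 0.37) in ZI418 and -0.30 (SE 0.37) in ZI197. The line means of *Cyp6w1* spanned 5.07 on the log2 scale in controls and 2.01 under MSB.

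The line means of *Cyp6a2* (adjusted p of the term = 0.00139) and *Cyp6a8* (0.00714) also spanned less under MSB than in controls. *Cyp6a2* was at 35.6 and 27.4 CPM in the controls of KL01 and at 265 and 244 CPM under MSB, a log2 fold change of 3.03 (SE 0.28). In ZI197 it was at 865 and 1355 CPM in controls and 1088 CPM under MSB, a log2 fold change of -0.02 (SE 0.47). Its line means spanned 5.11 in controls and 2.10 under MSB on the log2 scale. *Cyp6a8* was at 321 and 446 CPM in the controls of ZI197 and 1346 CPM under MSB (log2 fold change 1.82, SE 0.50), and at 3.59 and 2.35 CPM in the controls of ZI418 and 1384 CPM under MSB (8.89, SE 0.63). In KL02, with 0.240 and 0.159 CPM in controls and 92.1 and 9.74 CPM under MSB, the log2 fold change of 7.93 was not called (SE 1.61, edgeR adjusted p = 0.0577). The line means of *Cyp6a8* spanned 10.6 in controls and 5.60 under MSB, with KL01 and KL02 lowest in both (44.7 and 50.9 CPM under MSB). This narrowing was not shared by all P450 genes. Of the 27 genes called higher over all lines, 14 (51.9%) spanned less under MSB than in controls, where 33.5% of all genes called higher did. So did 20 of the 35 P450 genes not called (57.1%) and 6 of the 16 called lower (37.5%). Of all P450 genes tested, 51.3% spanned less, where 40.4% of all genes tested did.

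Other genes differed in which backgrounds responded. *Cyp9b1* (adjusted p of the term = 4.73e-05), called in the M9 lines alone, was at 2.05 and 1.59 CPM in the controls of M9D3 and 8.70 and 7.45 CPM under MSB, and at 2.24 and 1.43 CPM in the controls of M9N1 and 9.10 CPM under MSB. The log2 fold change was 2.16 (SE 0.23) in M9D3 and 2.33 (SE 0.26) in M9N1, and lay between -0.57 and 0.56 in the other 10 lines with no call. The controls of both M9 lines were below those of every other line. *Cyp4d1* (adjusted p = 0.000115), called higher in 9 lines, went from 0.993 and 0.913 CPM to 18.9 and 13.2 CPM in M9D3 (log2 fold change 4.07, SE 0.23), and from 3.36 and 2.13 CPM to 4.92 and 2.22 CPM in KL02 (0.33, SE 0.41). *Cyp6d2* (adjusted p = 1.44e-05) was called higher in 6 lines and lower in 1. It went from 2.76 and 2.21 CPM to 20.2 CPM in ZI197 (log2 fold change 3.03, SE 0.32) and from 12.3 and 14.3 CPM to 7.39, 9.13 and 4.11 CPM in ZI254 (-0.93, SE 0.24), both called. Of the 1759 exon bases of *Cyp6d2*, 897 overlap *nsr*, so that its counts may hold reads of that gene.

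The neighbours *Cyp309a1* and *Cyp309a2* on 2L (2562483 to 2573037) both differed among lines. *Cyp309a1* (adjusted p = 0.000396) went from 11.5 and 17.3 CPM to 199.8 CPM in ZI197 (log2 fold change 3.81, SE 0.32) and from 98.5 and 61.7 CPM to 130.4 and 89.2 CPM in M12N3 (0.46, SE 0.27). *Cyp309a2* (adjusted p = 0.000304) went from 76.0 and 62.0 CPM to 30.6 and 40.2 CPM in M12N3 (-0.96, SE 0.19, called lower) and from 5.16 and 4.09 CPM to 20.4 CPM in ZI418 (2.17, SE 0.34, called higher). Without the Zambian lines the term was no longer called for *Cyp309a2* (adjusted p = 0.0809). Over all lines *Cyp309a2* was not called (0.64, edgeR adjusted p = 0.0576), but it was called with line as a block (0.46, adjusted p = 0.0132) and in DESeq2 (adjusted p = 0.0461), and its value without the Zambian lines was -0.07 (adjusted p = 0.829).

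The control libraries were compared among lines to ask how far unstressed flies differed. With edgeR, 71 of 82 P450 genes (86.6%) differed among the 12 lines, where 57.7% of all tested genes did. By clan these were 3 of 4 CYP2 genes, 33 of 37 CYP3 genes, 26 of 32 CYP4 genes and 9 of 9 mitochondrial genes. The range of line means was also wide. Among genes with a mean of at least 1 CPM in controls, the median range was 2.10 on the log2 scale for 73 P450 genes and 0.61 for all 9556 genes, and 72 of the 73 P450 genes were above the latter value. A range over 2 was found for 56.2% of these P450 genes and for 9.87% of all these genes.

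*Cyp6a8* had the widest range, with line means from 0.207 CPM in KL01 to 383 CPM in ZI197 (range 10.6 on the log2 scale, edgeR adjusted p = 1.59e-10). *Cyp4g1* followed with 9.79, but it also varied within lines. Its controls were at 0.116 and 0.0215 CPM in ZI197 and 114.8 and 77.6 CPM in ZI254, but also at 4.60 and 34.4 CPM in ZI418 and 8.62 and 0.0637 CPM in KL02, and the median SD within a line was 1.57 on the log2 scale. The other wide ranges were those of *Cyp6g2* (0.851 CPM in ZI197 to 66.4 CPM in M9N1), *Cyp6a19* (0.170 CPM in M9N1 to 12.4 CPM in C2N1), *Cyp4d1* (0.366 CPM in ZI254 to 22.6 CPM in C2N1) and *Cyp6a9* (3.34 CPM in M9N1 to 148 CPM in C2N1). Each of these was called. *Cyp6a9*, *Cyp6a19* and *Cyp6a20* lie next to each other, and all had their lowest control level in M9N1. Of the 8 genes with the largest decreases under MSB, *Cyp313a1* (adjusted p = 0.143), *Cyp4d21* (0.183) and *Cyp4g15* (0.0905) had control levels that did not pass the test among lines, while *Cyp4ac2* (0.00114), *Cyp4d20* (0.00348), *Cyp305a1* (0.0477), *Cyp9h1* (1.29e-09) and *Cyp9f2* (0.000267) passed it.

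**Figure D5:**
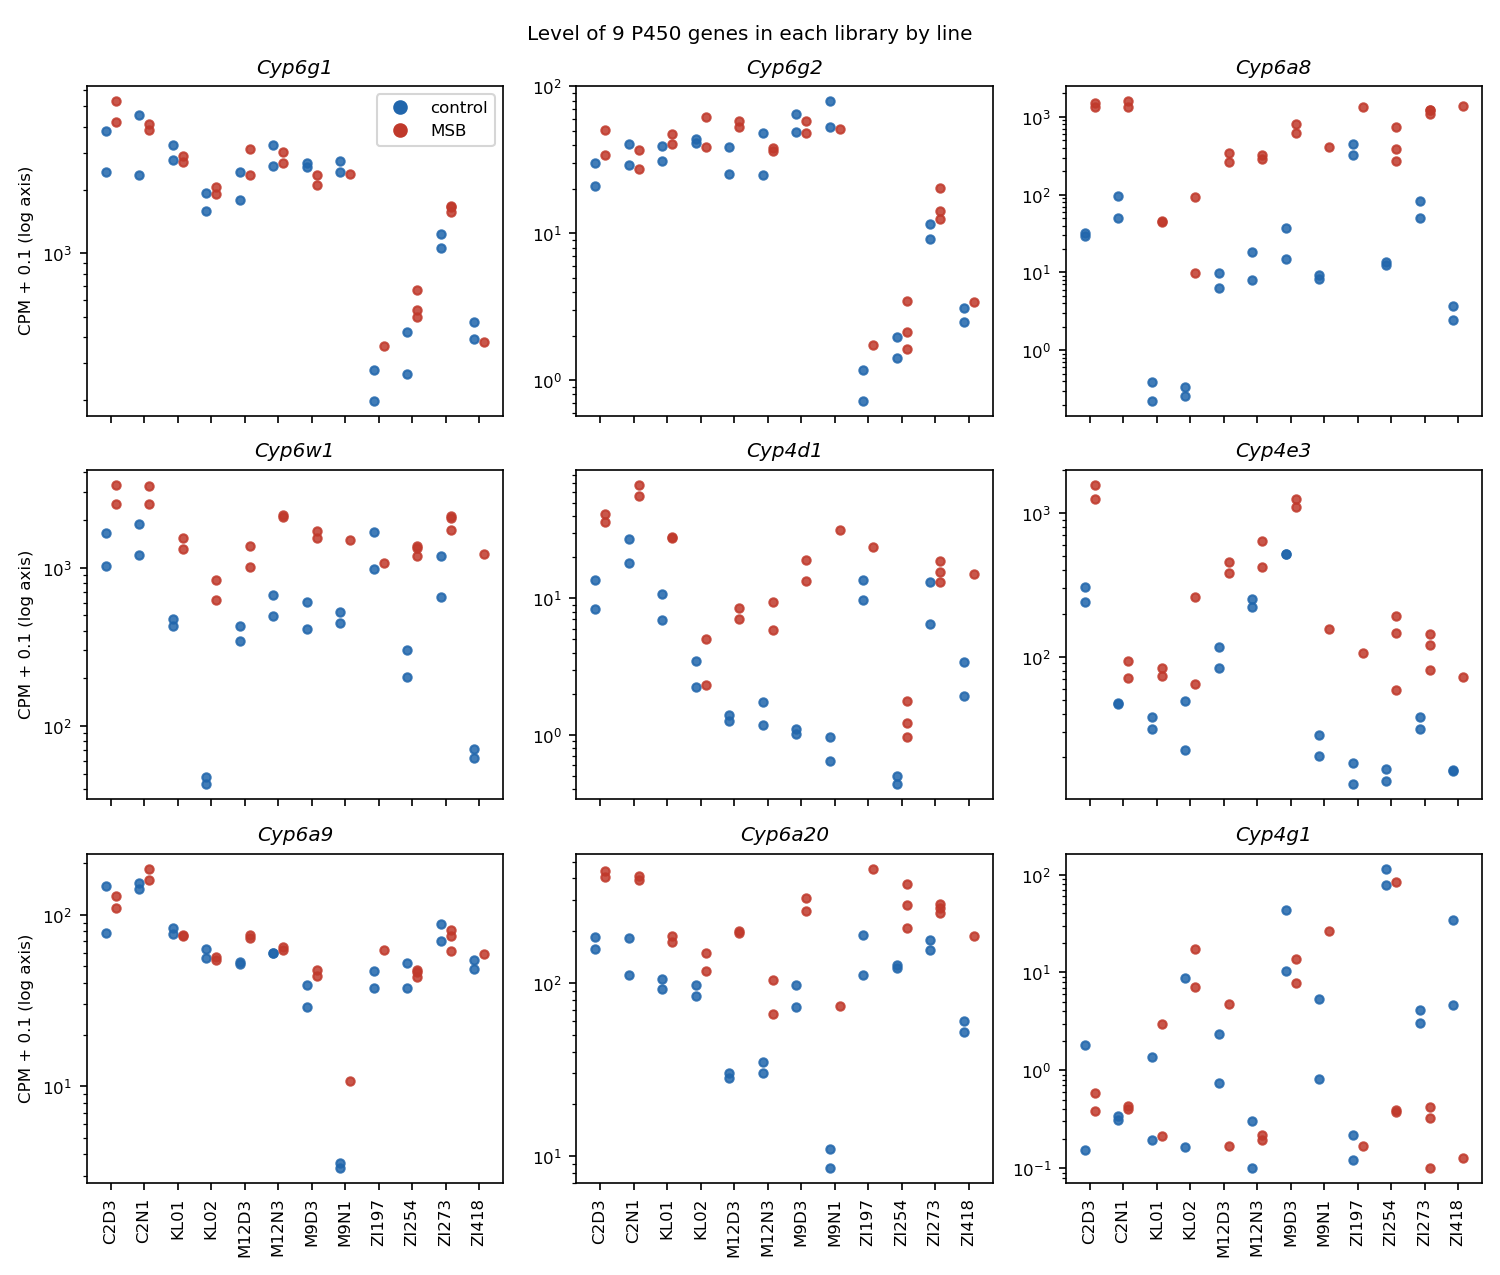
Level of 9 P450 genes (y axis, CPM + 0.1 on a log axis) in each control (blue) and MSB (red) library of the 12 lines (x axis). *Cyp6g1* and *Cyp6g2* are lowest in the 4 Zambian lines under either treatment, *Cyp6a8* and *Cyp6w1* differ more among lines in controls than under MSB, and *Cyp4g1* scatters within lines.

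The controls of the 4 Zambian lines were compared with those of the 8 other lines. With edgeR, 13 of 82 P450 genes were higher in the Zambian lines (15.9%, against 9.94% of all genes) and 30 were lower (36.6%, against 12% of all genes, in the same test). Leaving out ZI197 control replicate 2 brought the number higher to 6, and leaving out ZI273 control replicate 1 to 8. The lower genes comprised 17 of the CYP3, 7 of the CYP4 and 6 of the mitochondrial clan, and the higher ones 5, 7 and 1. *Cyp6g2* and *Cyp6g1* had the largest differences. The mean control level of *Cyp6g1* was 240 CPM in ZI197, 343 in ZI254, 431 in ZI418 and 1151 in ZI273, and between 1764 CPM in KL02 and 3445 CPM in C2N1 in the other lines, so that the 2 sets of lines did not overlap. The log2 difference was -2.57 (SE 0.12, edgeR adjusted p = 3.67e-15). *Cyp6g2* averaged 3.84 CPM in the Zambian and 41.1 CPM in the other lines, a log2 difference of -4.0 (SE 0.19, adjusted p = 1.43e-14). With the line as the unit, the exact two-sided permutation test over 495 splits gave p = 0.00202 for both genes, the smallest value it can give.

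Among the other genes with the largest differences, these rested on fewer lines. *Cyp4e3* averaged 20.3 CPM in the Zambian and 159 CPM in the other lines (log2 difference -2.27, SE 0.23, edgeR adjusted p = 3.19e-08, exact permutation p = 0.0263). *Cyp6a8* was higher in the Zambian lines (2.34, SE 0.30, adjusted p = 2.02e-06), but the exact permutation p over lines was 0.234, since ZI197 stood far above the rest and ZI418 below most other lines. *Cyp6a20* (0.92, adjusted p = 9.98e-08, exact permutation p = 0.269) and *Cyp313a3* (0.96, adjusted p = 0.0435, exact permutation p = 0.192) were likewise called over libraries and not over lines. Of the 43 genes called over libraries, 13 had an exact permutation p under 0.05 over lines, before adjustment. The permutation test was run for the P450 genes and not for all genes, so that this count has no share of all genes beside it. After *Cyp6g1* and *Cyp6g2*, the smallest exact permutation p were 0.00606 for *Cyp311a1*, which was higher in the Zambian lines, and 0.00808 for *Cyp6v1*, which was lower. *Cyp12a5* and *Cyp28d2*, both lower, followed with 0.0101 each. As the M12, M9 and C2 lines are pairs, the 8 other lines are not 8 independent lines, and these p may be too small.

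The deletion and nondeletion controls were compared within each background. In M12, 0 of 78 P450 genes were higher (0.0639% of all genes) and 0 lower (0.0365%), with 1 and 20 at an unadjusted p under 0.05 in edgeR and 0 and 2 after adjustment in DESeq2. In C2, 1 of 80 was higher (0.13%) and 0 lower (0.13%), with 6 lower at an unadjusted p under 0.05 and 2 lower in DESeq2 after adjustment. The shares of all genes given here are those of edgeR after adjustment. In M9, 12 of 81 were higher (1.81%) and 2 lower (0.838%), and in the KL lines 17 of 80 were higher (5.48%) and 4 lower (5.70%). With all 48 libraries the M9 calls were 4 higher and 0 lower. The numbers of P450 genes called thus differed widely between backgrounds, from none in M12 to 21 between the independent KL lines, and whether backgrounds differ was not tested.

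*Cyp4e3* was the P450 gene called in C2. It was at 306 and 240 CPM in C2D3 and 46.4 and 47.7 CPM in C2N1 (log2 difference 2.52, SE 0.22, edgeR adjusted p = 0.0034). It was also higher in M9D3, with 517 and 521 CPM against 20.3 and 28.3 CPM in M9N1 (4.39, SE 0.20, adjusted p = 1.9e-05). In M12 it was at 82.8 and 117 CPM in M12D3 and 224 and 252 CPM in M12N3, and in the KL lines at 31.2 and 37.7 CPM in KL01 and 22.5 and 49.1 CPM in KL02. The deletion line was therefore not the higher one in every background. In M9, *Cyp6a9* was at 38.8 and 29.0 CPM in M9D3 and 3.22 and 3.45 CPM in M9N1 (3.32, SE 0.16), *Cyp6a20* at 96.7 and 72.8 CPM and 10.9 and 8.42 CPM (3.11, SE 0.18), and *Cyp12a4* at 282 and 293 CPM and 84.96 and 95.4 CPM (1.65, SE 0.11), all called. *Cyp6t3* was lower in the deletion line of M9 (-1.18, SE 0.14, not called with all 48 libraries or in 1 fit over all lines) and of the KL lines (-2.16, SE 0.32). Between the KL lines, *Cyp6w1* was at 428 and 472 CPM in KL01 and 47.4 and 42.6 CPM in KL02 (3.30, SE 0.19), *Cyp4p1* at 168 and 211 CPM and 38.3 and 34.1 CPM (2.37, SE 0.32), and *Cyp28d1* at 829.6 and 845 CPM and 194 and 152 CPM (2.26, SE 0.15). The calls of *Cyp6a2*, *Cyp6a9*, *Cyp6d5* and *Cyp4d1* between the KL lines were lost when single KL libraries were left out, as were those of *Cyp4ac3*, *Cyp301a1*, *Cyp305a1*, *Cyp6g1*, *Cyp9b1* and *Cyp9h1*. That of *Cyp4p1* was lost without KL01 control replicate 2 (2.22, edgeR adjusted p = 0.0545).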

How the data were processed

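RNA-seq of male heads was analysed in 47 of 48 libraries. The authors deposited raw read counts per gene, not normalized. They sequenced paired-end reads of 150 bases; the counting program's use of strand was not given in the sources used here, and DESeq2 1.28.1 and R 4.0.0 are named in the submitters' processing notes. Gene symbols were assigned by identifier (13908) or through the CG number in RefSeq (43), and 6 genes had neither match. The choice of the P450 genes and their families rests on these symbols. The exon overlaps and coordinates rest on the Ensembl annotation of BDGP6.

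Counts were tested in R 4.3.3 with edgeR 4.0.16 (TMM, filterByExpr, robust quasi-likelihood F test, two-sided, Benjamini-Hochberg adjustment over all tested genes, threshold 0.05). CPM used TMM library sizes over the 47 libraries, and log2 CPM a prior count of 2. The SE of a log2 fold change was its size over the root of F. The response over all lines was fitted with treatment alone, as the study did, so that libraries of 1 line count as separate. The response of a line and the deletion comparison were fitted within a background, and the tests among lines in 1 fit with a group per line and treatment. The study states 2 biological replicates per line and treatment. The M9N1 library left out lay farthest of all stress libraries from their median on a PCA of 500 genes (distance 54.87, against 6.26 for its partner). The paper does not give the number of the library it left out. Replicate numbers did not pair the libraries (correlations of -0.052 to 0.168 in 9 lines).

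The genes named were the 10 largest increases and 8 largest decreases, the 6 widest ranges among control lines, the 6 smallest adjusted p for the line by treatment term, the 3 largest Zambian differences in each direction, the 5 highest control levels per length, and a list of genes of known role. Others are named after their values were seen, where a count or neighbour called for it. A gene of the heme list is not reported here, and no count is given for that list. The members and the lists were chosen with earlier results of these data known. The alternatives were DESeq2 1.42.0, RLE size factors, no filter, all 48 libraries, the other M9N1 library left out, line or replicate as a block, lines or libraries left out, 1 fit over all lines, controls only, and a threshold of 0.01. The procedure was tested on simulated data.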

Additional observations from a re-analysis of the deposited data

Results flagged for a closer look

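The response to MSB differed among the 12 lines for 17 of the genes named or examined, by the edgeR test of the line by treatment term. The adjusted p was 1.35e-05 for *Cyp6w1*, 1.44e-05 for *Cyp6d2*, 4.73e-05 for *Cyp9b1*, 0.000115 for *Cyp4d1*, 0.000304 for *Cyp309a2* and 0.000396 for *Cyp309a1*. It was 0.000636 for *Cyp6a20*, 0.00139 for *Cyp6a2*, 0.00714 for *Cyp6a8*, 0.0137 for *Cyp4p1*, 0.0149 for *Cyp6a9* and 0.0177 for *Cyp4p2*. It was 0.0231 for *Cyp4d14*, 0.0248 for *Cyp4ac3*, 0.0303 for *Cyp313a3*, 0.0342 for *Cyp6a19* and 0.0487 for *Cyp4e2*.

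A signal outside the comparisons appeared in the M9N1 stress library that was left out. *Cyp4g1* stood at 11870 CPM there (480397 counts), against 0 to 84.1 CPM in the other 23 stress libraries, and made up 54.2% of that library's summed P450 CPM. The oenocyte markers summed to 797 CPM in it, with *FASN2* at 605 CPM (at most 12.5 elsewhere) and *CG18609* at 181 CPM (at most 11.1 elsewhere), while neuronal markers were at 1523 CPM (2461 to 3703 in the other stress libraries) and photoreceptor markers at 19693 CPM (23615 to 59876). The part of oenocyte RNA in the *Cyp4g1* level was not tested. Of the 83 P450 genes, 11 were above and 4 below every other library, among them *Cyp312a1* at 66.6 CPM (at most 2.35 elsewhere).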

How the results depend on the processing

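Over all lines, 25 to 39 P450 genes were higher and 13 to 19 lower across 21 alternatives. *Cyp9b1*, near 0, changed sign without the filter (-0.0135), with all 48 libraries (-0.0119) and without M12N3 (-0.0153), M9D3 (-0.0376), M9N1 (-0.0904) or ZI197 (-0.0298), and *Cyp18a1* without KL01 (0.0279). *Cyp4g1* changed sign with all 48 libraries (5.45), with the other M9N1 stress library left out (5.51) and without the Zambian lines (0.25), and *Cyp309a2* without the Zambian lines (-0.0681). None of these 4 was called over all lines with the settings of the report, but *Cyp4g1* was called with all 48 libraries (adjusted p = 0.000852) and with the other M9N1 library left out (0.000876), and *Cyp309a2* with line as a block, in DESeq2, with the other M9N1 library left out (0.0482) and without KL02 (0.0481), M12D3 (0.0411) or M12N3 (0.013).

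DESeq2 called 42 P450 genes for the line by treatment term in place of 25, and 11 in place of 6 lower deletion controls summed over backgrounds. Shares of all genes were counted for the edgeR tests after adjustment alone, and not for DESeq2 or for unadjusted p. Leaving out single libraries gave 6 to 14 genes higher in Zambian controls and 28 to 33 lower, 69 to 74 differing among control lines, 18 to 32 for the line by treatment term, 21 to 35 higher and 4 to 7 lower in deletion controls, and 267 to 294 higher and 113 to 128 lower calls summed over lines. Leaving out the sole stress library of ZI197, ZI418 or M9N1 was not run for that line. The causes were not tested. With the replicate number as a block, 27 genes were higher and 18 lower over all lines, and *Cyp313a3* was not called in Zambian controls (adjusted p = 0.0519). Genes under about 1 CPM, such as *Cyp310a1* and *Cyp4ad1*, rest on few counts.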
